A study of Mus musculus with 27 samples.

Results

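The response to TGFβ was described in the ΔHD1/- lines, cell lines grown from mammary tumors of MMTV-PyMT mice, which carry polyoma middle T under the promoter of the mammary tumor virus (FVB/N background). The libraries were chosen by their labels as the TGFβ-treated and the untreated library of line 1 and of line 2, paired within each line, which makes 4 of the 27 libraries of the series. In these cells the Bcl9 and Bcl9l alleles that remain are ΔHD1 alleles, which lack the domain that binds Pygopus, and the floxed allele had been removed with an adenovirus that carries Cre and GFP, followed by sorting for GFP. TGFβ was given at 2 ng/ml for 4 days and the untreated cells received growth medium alone. The Wnt3a libraries of the same lines (100 ng/ml, 3 days) and the ΔHD1/fl lines, which keep a floxed wild-type allele and were given TGFβ at the same dose and time, are used below for comparison. The remaining libraries are of ΔHD2/fl and ΔHD2/- lines, whose Bcl9 and Bcl9l alleles lack the β-catenin-binding domain HD2, given the same treatments, and they supply much of the spread behind the tests. Lines 1 and 2 came from the thoracic mammary gland tumors of different mice, fibroblasts having been removed by differential trypsinization, and all treatments of a line were plated together. Each line therefore contributed 1 library per treatment, and the replicate of the experiment is the line.

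TGFβ binds a pair of receptor kinases that phosphorylate Smad2 and Smad3, and with Smad4 these enter the nucleus and change transcription. In mammary epithelial cells a lasting exposure is known to set off an epithelial-mesenchymal transition (EMT), in which E-cadherin and other junction proteins are lost while matrix proteins, integrins and parts of the contractile cytoskeleton are gained. Factors of the Snail, Zeb and Twist families repress epithelial genes through E-box sequences, and Grhl2, Ovol2 and the Esrp splicing factors oppose them.

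Values are given as CPM, reads per 1000000 reads assigned to genes, and a change is the difference in log2(CPM + 1) between the TGFβ and the untreated library of a line. The untreated libraries held 23385548 (line 1) and 33692360 reads (line 2) and the TGFβ libraries 25184672 and 27781493 reads, and 3 reads, the upper limit behind a count of 0, equalled 0.089 to 0.128 CPM. On this scale the change of a gene near 0 is understated and is not a bound. Mean changes are given ± the standard error of the paired limma fit, and adjusted p-values cover all 13270 genes tested. Bulk RNA cannot tell fewer cells of a kind from less RNA per cell.

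The targeted genes were examined first. Bcl9 went from 44.5 to 37.1 CPM in line 1 and from 67.8 to 33.2 CPM in line 2. Bcl9l went from 318 to 152 CPM in line 1 and from 184 to 70.7 CPM in line 2. A gene-level count does not see the missing HD1 domain, so these levels do not check the genotype. Bcl9l was lower with TGFβ in both lines (mean change -1.21 ± 0.18, adjusted p = 0.000999), a call that was lost without pairing (adjusted p = 0.223) and, by the limit on the change alone, with median-of-ratios scaling (-0.97, adjusted p = 0.00282), whereas the mean change of Bcl9 was -0.63 ± 0.24 (adjusted p = 0.0766). In the 7 tested genes of the Bcl9, Pygopus and β-catenin complex, 0 were called higher and 1, Bcl9l, was called lower, where 6.84% of all genes were called lower, and with median-of-ratios scaling 0 were.

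The lines were then compared with their label as epithelial tumor cells. Untreated line 1 held Cdh1 (E-cadherin) at 817 CPM, Epcam at 263 CPM, Krt8 at 1110 CPM and Krt18 at 637 CPM. Untreated line 2 held Cdh1 at 0.237 CPM, Epcam at 0 CPM, Krt8 at 1090 CPM and Krt18 at 2.23 CPM. Of the defining epithelial markers only Krt8 was thus abundant in both lines. Among 9 fibroblast markers, line 2 held Col1a1 at 2600 CPM, Col3a1 at 1040 CPM and Pdgfra at 629 CPM, against 6.46, 2.14 and 11.2 CPM in line 1, while Lum and Fap were at 0 in all 4 libraries and Dcn did not exceed 1.51 CPM. The summed fibroblast markers were 213 CPM untreated and 65.8 CPM with TGFβ in line 1, and 4740 and 4360 CPM in line 2. Of 7 immune markers, Ptprc and Cd3e did not exceed 0.252 CPM, and Csf1r stood at 165 CPM in untreated line 2. The same contrast was present in the Wnt3a libraries, where Cdh1 was at 710 CPM in line 1 and 0.121 CPM in line 2. Untreated, 2666 of the 13270 genes (20.1%) lay at least 1 apart on the log2 scale between the lines, and with TGFβ 2869 genes (21.6%) did.

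Promoter sequences were examined for genes that separate the lines from each other or change in both. RefSeq windows (GRCm38.p6) were found for 7 of the 18 genes made up of Cdh1, Epcam and the named shared genes, and for 17 of 24 further genes that differed between the lines. Those 24, Acta2 and Ankrd1 among them, were added after the data were seen. Windows of 3 genes, the 250 bases before the start site read 5′ to 3′ on the gene's strand, are shown for an epithelial gene, a contractile gene and a muscle-type cofactor gene. The start site used for Acta2 lies inside its gene model rather than at the 5′ edge. Capitals mark the E-box that Snail and Zeb factors bind (CAGGTG or CACCTG) and the SMAD-binding element (CAGAC or GTCTG), each searched on both strands.
Epcam (chr17:87635729-87635978, plus strand): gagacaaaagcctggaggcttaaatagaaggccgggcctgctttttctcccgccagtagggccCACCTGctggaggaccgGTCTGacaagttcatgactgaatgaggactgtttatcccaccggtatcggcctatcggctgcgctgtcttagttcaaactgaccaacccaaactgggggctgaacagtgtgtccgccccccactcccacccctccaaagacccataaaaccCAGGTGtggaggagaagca
Acta2 (chr19:34255374-34255623, minus strand): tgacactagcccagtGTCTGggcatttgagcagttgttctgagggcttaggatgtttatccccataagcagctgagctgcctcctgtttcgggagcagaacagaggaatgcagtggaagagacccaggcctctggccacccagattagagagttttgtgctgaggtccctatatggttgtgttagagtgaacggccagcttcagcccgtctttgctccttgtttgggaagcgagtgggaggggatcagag
Ankrd1 (chr19:36119845-36120094, minus strand): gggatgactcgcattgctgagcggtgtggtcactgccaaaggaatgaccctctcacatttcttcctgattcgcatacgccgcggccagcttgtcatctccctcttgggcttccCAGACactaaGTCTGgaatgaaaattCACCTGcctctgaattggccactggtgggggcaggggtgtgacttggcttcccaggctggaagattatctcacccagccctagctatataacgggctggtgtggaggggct
The Epcam window held 2 E-boxes and 1 SMAD element, the Acta2 window 1 SMAD element and no E-box, and the Ankrd1 window 1 E-box and 2 SMAD elements. Among the other named genes with windows, Chdh, Moxd1, Wnt4 and Nfam1 had an E-box. Lgr6, Col5a3, C3, Ptprn, Dkk2, Ptchd1, Lcp1 and Chil1 had neither motif. The rest had a SMAD element only, in at least some of their windows. Of all 32851 promoter windows, 17.2% held an E-box and 42.2% a SMAD element of this kind, so such matches are common. The palindromic SMAD element GTCTAGAC, present in 0.167% of windows, was in none of those of the named genes. No window was used for Cdh1, Ccn2, Tagln or Actg2.

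Across both lines, TGFβ lowered more genes than it raised. The paired fit called 330 genes higher (2.49% of those tested) and 908 lower (6.84%). Without pairing by line it called 42 higher and 148 lower, all of them among the 1238 paired calls. The median change over all genes was -0.2 in line 1 and -0.19 in line 2, and median-of-ratios scaling moved these to -0.01 and 0. With that scaling the calls were 448 higher and 581 lower, so that the share of higher calls was 43.5% instead of 26.7%. Fn1 alone took 3.01% and 3.16% of the reads in the TGFβ libraries, against 1.14% and 0.84% untreated.

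Counted line by line, 552 genes were at least 1 higher in line 1 (4.16%) and 1906 at least 1 lower (14.4%). In line 2, 703 genes were at least 1 higher (5.3%) and 1239 at least 1 lower (9.34%). Of these, 255 were higher in both lines, 652 were lower in both, 15 were higher in line 1 and lower in line 2, and 59 the other way. The fit that gives each line its own TGFβ effect, with the spread taken from the other lines, called 346 higher (2.61%) and 1364 lower (10.3%) in line 1, and 419 higher (3.16%) and 650 lower (4.9%) in line 2. With median-of-ratios scaling these became 513 and 987 in line 1 and 559 and 425 in line 2, and with edgeR 444 and 1098 in line 1 and 489 and 351 in line 2, so in line 2 the balance of higher and lower calls turned around. The changes in the 2 lines correlated with r = 0.477 across the 13270 genes, which are not independent replicates. Genes were then sorted into 801 shared genes, 135 changed in line 1 alone, 97 changed in line 2 alone, and 11 and 41 changed in opposite directions, and the plot of line 1 against line 2 shows where each class lies.

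**Figure D1:**
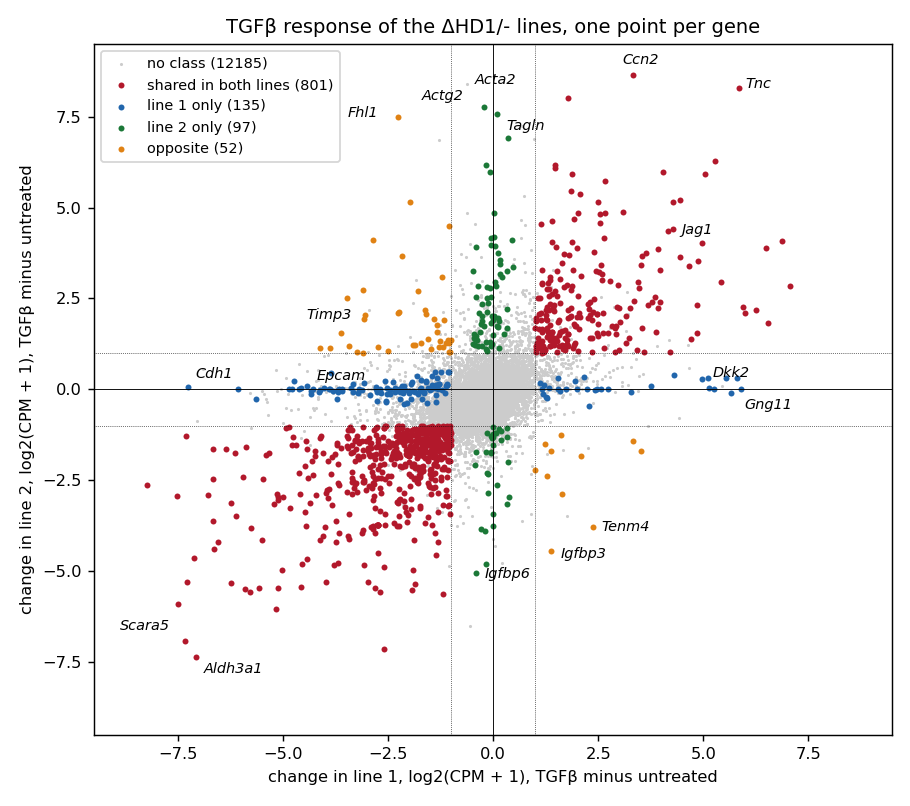
Change of each of 13270 genes with TGFβ in ΔHD1/- line 1 (horizontal axis) and line 2 (vertical axis), both in log2(CPM + 1), with dotted lines at a change of 1 in either direction. Shared genes lie in the upper right and lower left corners, the genes of a single line lie along an axis (Cdh1 at -7.27 and 0.06, Tagln at 0.09 and 7.58), and opposite genes fill the other corners.

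Shared genes were those called in the paired fit and changed by at least 1 in the same direction in each line. There were 222 shared genes that rose (1.67%) and 579 that fell (4.36%), and 34 and 129 of them were also called without pairing. Median-of-ratios scaling gave 301 and 416 shared genes. The rule that defines this class uses the changes themselves, so their size is a description. The genes with the largest shared changes are given first.

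Tnc, which encodes the matrix protein tenascin C, went from 275 to 15800 CPM in line 1 and from 30.5 to 9960 CPM in line 2 (mean change 7.07 ± 1.66, adjusted p = 0.0112). Both TGFβ libraries lay far above both untreated libraries. The call on Tnc was lost when either line was left out (adjusted p = 0.0694 without line 1 and 0.162 without line 2). Ccn2, a matricellular growth factor, went from 97.7 to 981 CPM in line 1 and from 8.84 to 3940 CPM in line 2 (5.98 ± 0.82, adjusted p = 0.000607). Ccn2 rose in both lines and by more in line 2 (line 1 minus line 2 -4.52 ± 0.64, adjusted p = 0.00318).

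Itgb3, the integrin β3 subunit, went from 2.99 to 131 CPM in line 1 and from 9.88 to 660 CPM in line 2. Has2, which makes hyaluronan, went from 10.9 to 197 CPM and from 2.73 to 234 CPM. Col5a3, a fibrillar collagen chain, went from 0.941 to 259 CPM and from 45.9 to 335 CPM. Line 2 thus started with far more Col5a3, and its call (adjusted p = 0.00588) was lost without line 1 (adjusted p = 0.187). Lgr6, a receptor for R-spondins, went from 0.812 to 163 CPM and from 0.119 to 15.5 CPM. Mmp9, the gelatinase B gene, went from 0.0855 to 127 CPM and from 2.08 to 50.6 CPM, a call (adjusted p = 0.0168) that was lost when either line was left out. The mean changes of these 5 genes ranged from 4.95 to 5.49.

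The shared genes that fell most encode proteins of varied function. Aldh3a1, an aldehyde dehydrogenase, went from 230 to 0.715 CPM in line 1 and from 990 to 5.08 CPM in line 2 (mean change -7.21 ± 0.66, adjusted p = 7.64e-05). Scara5, a ferritin receptor, went from 166 to 0.0397 CPM and from 155 to 0.288 CPM (-7.12 ± 0.66, adjusted p = 7.64e-05), the first of these values being a single read. Notum, a secreted deacylase that inactivates Wnt proteins, went from 60.4 to 0.119 CPM and from 58.9 to 0.252 CPM (-5.68 ± 0.53, adjusted p = 7.76e-05). All 3 ended at or under 5.08 CPM in both lines and were also called without pairing.

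Chdh, choline dehydrogenase, went from 224 to 0.238 CPM in line 1 and from 67.8 to 0.144 CPM in line 2. Ppl, the desmosomal plakin periplakin, went from 365 to 1.35 CPM and from 38.7 CPM to 0. C3, the central complement protein, went from 184 to 0.318 CPM and from 143 to 4.72 CPM. All of these fell (mean changes -6.71 to -5.89). C3, Chdh and Ppl in line 2 stood at 22.7, 8.38 and 19.4 CPM in the Wnt3a library, each between its untreated and its TGFβ value. Mme, the neprilysin peptidase, went from 101 to 0.357 CPM and from 116 to 1.91 CPM, with 11.7 CPM in the Wnt3a library of line 2. Gas7, a regulator of actin and membrane shape, went from 61.5 to 0.0397 CPM and from 1160 to 24.7 CPM, and its call (adjusted p = 0.00244) was lost without line 1 (adjusted p = 0.0537).

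The pathway's own components were ordered by their role. Over all genes 2.49% were called higher and 6.84% lower. Of 5 ligands tested, 1 was called higher: Inhba, the activin A subunit, which went from 29.8 to 195 CPM in line 1 and from 16.8 to 935 CPM in line 2 (mean change 4.19 ± 0.9, adjusted p = 0.00724). Tgfb1 stood at 16.1 and 28.5 CPM in line 1, next to 54.3 and 39.5 CPM in line 2 (0.17 ± 0.36, adjusted p = 0.804). Of 5 receptors and coreceptors, 1 was called higher (Acvrl1, described with line 2) and 2 lower. The type II receptor Tgfbr2 went from 378 to 75 CPM and from 285 to 192 CPM (-1.44 ± 0.4, adjusted p = 0.023), a call lost with median-of-ratios scaling, with edgeR and without line 1. The coreceptor Tgfbr3 (betaglycan) fell from 47.8 to 7.23 CPM and from 181 to 12.8 CPM. Tgfbr1 stood at 58.8 and 39.4 CPM and at 22.8 and 29.6 CPM (adjusted p = 0.87).

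Of 13 Smads and inhibitors of the pathway, 4 rose and 1 fell, where 2.49% of all genes were called higher and 6.84% lower. Smad7, the inhibitory Smad that TGFβ induces, went from 43.4 to 120 CPM in line 1 and from 26.9 to 124 CPM in line 2 (mean change 1.81 ± 0.22, adjusted p = 0.000277). Skil, a corepressor of Smads, went from 49.9 to 111 CPM and from 46 to 177 CPM. Pmepa1, which sequesters receptor-regulated Smads, went from 291 to 648 CPM and from 54 to 536 CPM. The call on Skil was lost when either line was left out (adjusted p = 0.0658 without line 1 and 0.237 without line 2), and that on Pmepa1 without line 2 (adjusted p = 0.0547). The fourth was the repressor Tgif1, and Smad6 was the gene that fell. The list's median change was 0.21 in line 1 and 0.52 in line 2, against -0.2 and -0.19 over all genes tested. Of 16 TGFβ target genes, 10 were called higher and 0 lower (limma), with medians of 1.82 in line 1 and 2.45 in line 2, and with median-of-ratios scaling 11 were called higher. Without pairing, 2 of the target genes, Ccn2 and Jag1, stayed called. Jag1, a Notch ligand, went from 30.1 to 599 CPM and from 11.9 to 276 CPM (4.35 ± 0.36, adjusted p = 3.15e-05). Among 12 BMP and Id genes, Id1 and Id2 fell, Id2 from 98.8 to 2.14 CPM in line 1 and from 37.2 to 3.96 CPM in line 2 (-3.97 ± 0.63, adjusted p = 0.00132).

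**Figure D2:**
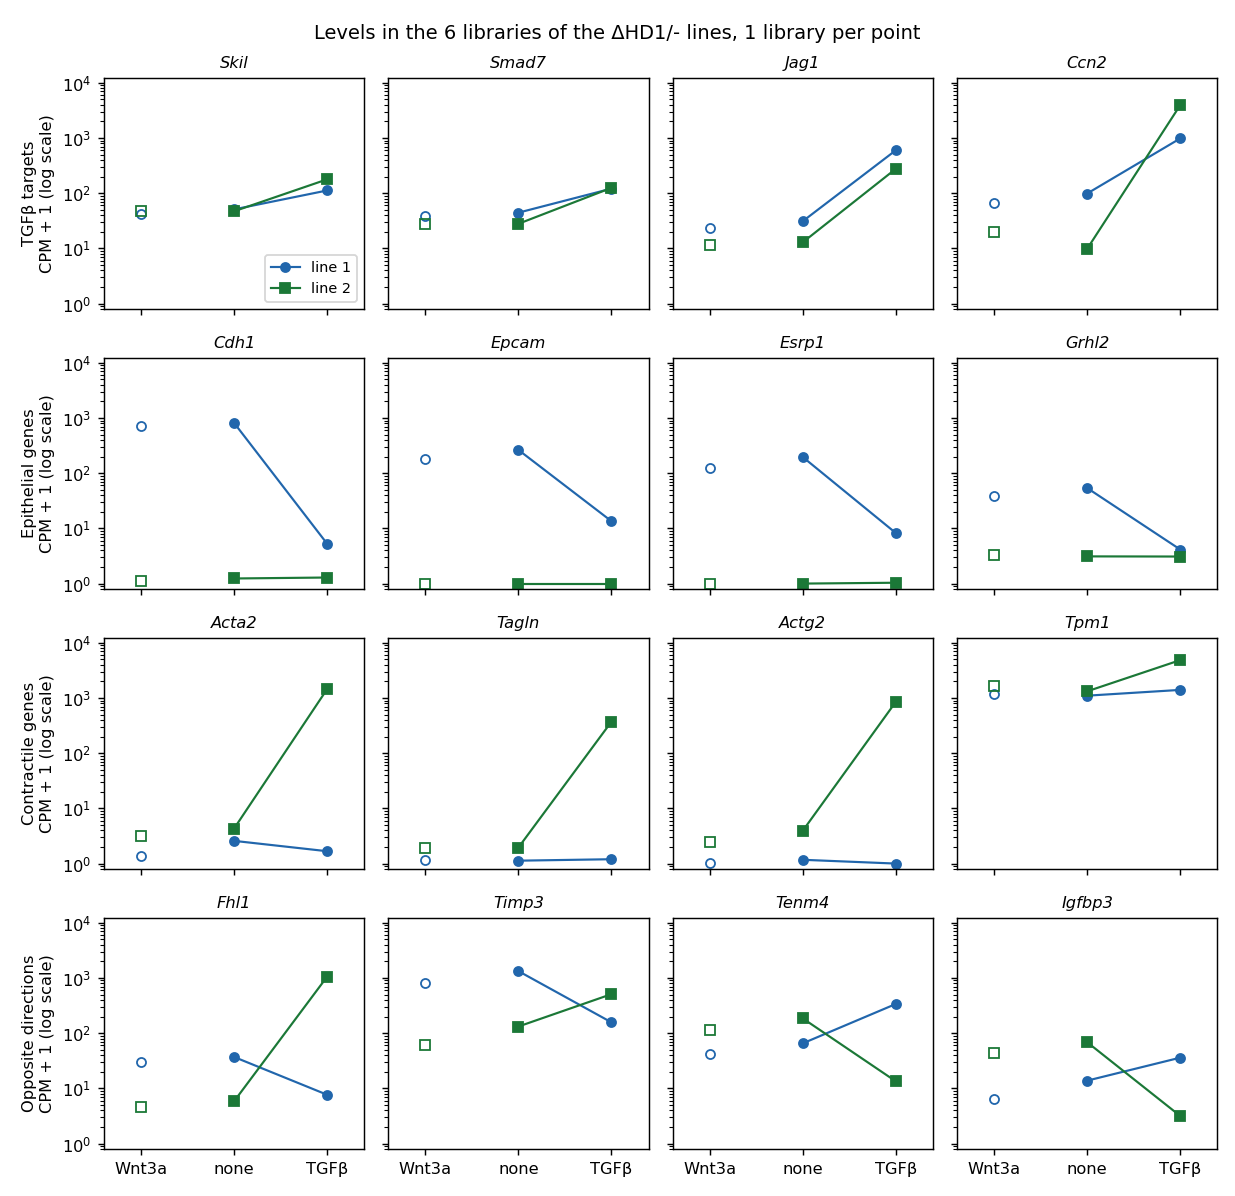
Level of 16 genes (CPM + 1, log axis) in each of the 6 libraries of ΔHD1/- line 1 (blue circles) and line 2 (green squares), filled and joined for untreated and TGFβ, open for Wnt3a. The target genes in the top row climb in both lines, the epithelial genes drop in line 1 and lie near the floor in line 2, Acta2, Tagln and Actg2 climb in line 2 alone, and the genes in the bottom row cross.

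Genes that changed in line 1 alone were called in the test of line 1 against line 2, moved by at least 1 in line 1 and by less than 0.5 in line 2. That test called 118 genes with a higher response in line 1 (0.889%) and 329 with a lower one (2.48%). There were 104 genes that fell in line 1 alone (0.784%) and 31 that rose (0.234%). In line 2 both libraries were under 1 CPM for 48 of the 104, in which a fall could not have been seen, and for 21 of the 31. The same held for 1508 of all 13270 genes. In the Wnt3a libraries, which also enter the fit behind this class, 77 of the 104 lay at least 1 higher in line 1 than in line 2 and 0 lay at least 1 lower (1340 and 1061 of all 13270 genes). This is a description, since a gene had to be expressed in line 1 to fall there.

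Cdh1 led the genes that fell in line 1 alone, and Epcam, another epithelial adhesion gene, was among them. Cdh1 went from 817 to 4.29 CPM in line 1 and stood at 0.237 and 0.288 CPM in line 2 (line 1 minus line 2 -7.3 ± 0.53, adjusted p = 2.35e-05). That call was lost without pairing by line and with ΔHD1 libraries only (adjusted p = 0.0528). Epcam went from 263 to 12.5 CPM in line 1 and was at 0 in both libraries of line 2 (-4.01 ± 0.56, adjusted p = 0.00286). Line 1 with TGFβ thus held more Cdh1 and Epcam than line 2 untreated. Spint1, an inhibitor of membrane serine proteases, went from 44.4 to 0.556 CPM and was at 0 in line 2 (adjusted p = 0.0149 in the test between the lines, and 1 with edgeR). Pitpnm3, a phosphatidylinositol transfer protein gene, went from 70.7 to 1.71 CPM against 2.34 and 2.92 CPM in line 2, and Wnt4 from 15.9 to 0.0397 CPM against 1.72 and 1.8 CPM. Both were thus low but present in line 2.

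The epithelial lists are set against all genes, of which 14.4% were at least 1 lower in line 1 and 9.34% in line 2. Of all 13270 genes, 1508 were under 1 CPM in both libraries of line 2. Of 14 epithelial transcription and splicing factors, 12 were at least 1 lower in line 1 and 3 in line 2, with medians of -2.83 and 0, and 8 of the 14 were under 1 CPM in both libraries of line 2. Esrp1 went from 195 to 7.23 CPM in line 1 against 0 and 0.036 CPM in line 2, and Grhl2 from 52.8 to 3.14 CPM against 2.11 and 2.09 CPM (test between lines, adjusted p = 0.00607 and 0.0185). Ovol2 stood at 1.58 CPM and 0 in line 1 and at 0 in line 2 (adjusted p = 0.472). Of 20 adherens and tight junction genes, 13 were at least 1 lower in line 1 and 1 in line 2 (medians -1.73 and 0), and 11 were under 1 CPM in both libraries of line 2. Cldn7 went from 45.1 to 1.67 CPM and Ocln (occludin) from 34.1 to 0.278 CPM in line 1. Cldn4 went the other way, from 183 to 554 CPM in line 1 and from 0 to 2.3 CPM in line 2, without passing the paired test (adjusted p = 0.0834). Of 7 epithelial proteases and inhibitors, 5 were at least 1 lower in line 1 and 0 in line 2, where all 7 were under 1 CPM. Among 10 desmosome genes, 7 were at least 1 lower in line 1 and 2 in line 2.

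A few epithelial genes fell in both lines. Besides Ppl, they included the transcription factors Klf4 (34.1 to 7.66 CPM in line 1, 110 to 9.21 CPM in line 2), Gata3 (80.9 to 23.7 and 30.6 to 8.96 CPM) and Trp63 (9.96 CPM to 0 and 75.8 to 3.67 CPM), all called in the paired fit. Krt14, a basal keratin, fell with them from 1590 to 143 CPM and from 223 to 87.3 CPM (mean change -2.4 ± 0.52, adjusted p = 0.00756). Among the 7 basal and stress keratins 1 was called lower, namely Krt14, where 6.84% of all genes were. The medians of that list were -0.17 in line 1 and -0.16 in line 2, against -0.2 and -0.19 over all genes. Krt8 stood at 1110 and 1370 CPM in line 1, next to 1090 and 2880 CPM in line 2 (0.86 ± 0.6, adjusted p = 0.343). Krt18 was called higher, from 637 to 1080 CPM and from 2.23 to 29.2 CPM (1.99 ± 0.56, adjusted p = 0.0262), but the call was lost without line 2, without pairing, with line as a random effect, with ΔHD1 libraries only and with a pseudocount of 0.1.

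The 6 genes with the largest differences among those that rose in line 1 alone were all under 1 CPM in both libraries of line 2. Gng11, a G protein γ subunit, went from 0.342 to 79.2 CPM in line 1 and was at 0 in line 2. Moxd1, a monooxygenase-like gene of neural crest cells, went from 2.52 to 194 CPM against 0 and 0.252 CPM. Ptprn, a protein of secretory granules, went from 0.214 to 60.7 CPM against 0.623 and 0.504 CPM. In untreated line 1 Gng11 and Ptprn were under 1 CPM as well, whereas Moxd1 was not. Dkk2, a secreted modulator of Wnt receptors, went from 0.385 to 47.6 CPM against 0 and 0.036 CPM (line 1 minus line 2 5.2 ± 0.45, adjusted p = 0.000109). Plxna4, a semaphorin coreceptor, went from 0.214 to 55.4 CPM against 0.237 and 0.54 CPM (5.05 ± 0.39, adjusted p = 3.99e-05). Ptchd1, a patched-domain gene, went from 0.342 to 50 CPM and was at 0 in line 2. Of the 6, only Ptprn kept its call with edgeR (adjusted p = 0.0246), which gave 0.0768 for Plxna4, 0.503 for Moxd1 and 1 for Gng11, Dkk2 and Ptchd1. Moxd1 also lost its call when each line was given its own Wnt3a effect (adjusted p = 0.077).

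In line 2 alone, 65 genes rose (0.49%) and 32 fell (0.241%). Both libraries of line 1 were under 1 CPM for 27 of the 65 and for 20 of the 32, against 1327 of all 13270 genes. Actg2 and Tagln, both known from smooth muscle, led the rises. Actg2, the enteric smooth muscle actin, went from 2.94 to 852 CPM in line 2 and from 0.171 CPM to 0 in line 1 (line 1 minus line 2 -8.25 ± 0.46, adjusted p = 4.89e-06). Tagln, the actin-binding protein SM22, went from 0.95 to 371 CPM in line 2 and stood at 0.128 and 0.199 CPM in line 1 (-7.52 ± 0.36, adjusted p = 1.7e-06). Acta2, α-smooth muscle actin, went from 3.29 to 1440 CPM in line 2 and from 1.58 to 0.675 CPM in line 1 (-8.8 ± 0.52, adjusted p = 4.89e-06), just outside the class because it moved by -0.62 in line 1. These 3 genes thus ended at 371 to 1440 CPM in line 2 while both libraries of line 1 stayed under 2 CPM. Leaving out line 1, the rise of Acta2 was called by the TGFβ test (adjusted p = 3.46e-06).

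Other contractile genes varied in how they differed between the lines. Of 12 tested, 7 were at least 1 higher in line 2 and 0 in line 1, against 5.3% and 4.16% of all genes, with medians of 1.06 and -0.22. In limma's test between the lines, 4 were called with a lower response in line 1, against 2.48% of all genes, and 0 with a higher one. Tpm1 (tropomyosin) went from 1320 to 4850 CPM in line 2 against 1100 and 1400 CPM in line 1, and Actn1 (α-actinin) from 692 to 2190 CPM against 984 and 1230 CPM. Both had adjusted p-values above the threshold in the test between the lines (0.0693 and 0.0677). Tpm2 went from 63.2 to 0.794 CPM in line 1 and from 165 to 240 CPM in line 2 (adjusted p = 0.0041). Vcl, the focal adhesion protein vinculin, went from 750 to 370 CPM in line 1 and from 965 to 1980 CPM in line 2 (adjusted p = 0.0182).

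Further genes that rose in line 2 alone came with different starting levels in line 1. Lcp1, the actin bundler L-plastin, went from 0.505 to 107 CPM in line 2 and from 0.128 CPM to 0 in line 1. Fgd3, a Cdc42 exchange factor, went from 0.712 to 205 CPM in line 2 and already stood at 71.7 and 92.3 CPM in line 1. Ankrd1, a stress-induced muscle cofactor, went from 9.23 to 645 CPM in line 2 against 261 and 247 CPM in line 1. Fgd3 and Ankrd1 were thus present in line 1 before TGFβ. The call on Ankrd1 was among the weakest (adjusted p = 0.0432, and 0.0705 when each line had its own Wnt3a effect). Prnd, a prion protein relative whose gene model overlaps Prn, went from 0.148 to 32.3 CPM in line 2 against 0.171 and 0.199 CPM in line 1, and Prn itself went from 1.34 to 34.1 CPM in line 2. Acvrl1, a type I receptor of the TGFβ family, went from 0.0297 to 7.74 CPM in line 2 and stood at 0.171 and 0.357 CPM in line 1 (adjusted p = 0.00792).

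Of the genes that fell in line 2 alone, the 6 with the largest differences are given. Trem2, a lipid-sensing receptor, went from 13.9 to 0.108 CPM in line 2 and was at 0 in line 1. Nfam1, an immune receptor with an activation motif, went from 13.9 to 0.396 CPM and was at 0 in line 1. Itgb2, the leukocyte integrin subunit, went from 23.9 to 0.684 CPM in line 2 and stood at 3.21 and 2.7 CPM in line 1. The 7 immune markers summed to 183 CPM untreated and 71.6 CPM with TGFβ in line 2, and to 9.19 and 3.06 CPM in line 1. Csf1r went from 165 to 67.6 CPM in line 2, and Cd68, a lysosomal protein of macrophages, was called lower in both lines together (mean change -2 ± 0.34, adjusted p = 0.00186). Ptprc, the pan-leukocyte marker, was at 0 in untreated line 2, and Itgam was at 0 in both of its libraries. The part of these markers in the falls was not tested. Igfbp6, which binds IGF2, went from 35.8 to 0.108 CPM in line 2 against 0.385 and 0.0397 CPM in line 1. Chil1, a chitinase-like secreted protein, went from 43.7 to 0.612 CPM against 0.128 CPM and 0. Phex, an endopeptidase of phosphate metabolism, went from 16.5 to 0.972 CPM against 2.01 and 2.82 CPM. Line 1 thus held under 1 CPM of 4 of the 6 genes in both libraries, the exceptions being Itgb2 and Phex, so a fall of the 4 could not have been seen there. With edgeR the calls on these 4 were lost (adjusted p = 0.492 for Igfbp6, 0.948 for Chil1 and 1 for Trem2 and Nfam1), and the difference for Chil1 was 0.37.

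Genes that moved in opposite directions numbered 11 higher in line 1 and lower in line 2 (0.0829%) and 41 the other way (0.309%). Fhl1, a LIM-domain protein of muscle, went from 36.1 to 6.67 CPM in line 1 and from 4.81 to 1050 CPM in line 2 (line 1 minus line 2 -9.78 ± 0.69, adjusted p = 1.95e-05). F3, tissue factor, went from 26.2 to 5.96 CPM and from 7.27 to 293 CPM. Pappa, a protease that cleaves IGF-binding proteins, went from 42.3 to 4.92 CPM and from 0.119 to 18.4 CPM. In each of these genes line 1 stood above line 2 untreated and below it with TGFβ. Lmcd1, a LIM protein, went from 16 to 0.993 CPM and from 15.3 to 106 CPM, having started level (-6.08 ± 0.57, adjusted p = 0.000175). Timp3, a matrix-bound metalloproteinase inhibitor, went from 1330 to 156 CPM and from 131 to 508 CPM (adjusted p = 6.35e-05). The ligand gene Tgfb2 went from 11.7 to 0.516 CPM and from 7.33 to 33.5 CPM (adjusted p = 0.0465).

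In the other direction, Tenm4, a teneurin adhesion receptor, went from 64.4 to 337 CPM in line 1 and from 184 to 12.4 CPM in line 2 (line 1 minus line 2 6.12 ± 0.96, adjusted p = 0.00533). Igfbp3, an IGF carrier, went from 12.8 to 35 CPM in line 1 and from 67.5 to 2.16 CPM in line 2. Cavin4, a caveolar coat protein of muscle, went from 1.62 to 25.3 CPM and from 71.1 to 26 CPM. Rgs17, a G protein regulator, went from 0.385 to 14.7 CPM and from 7.54 to 1.62 CPM. Line 2 held more of all 4 before TGFβ, and with TGFβ Cavin4 ended at about the same level in both lines.

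The matrix and its receptors are set against the 2.49% of all genes called higher and the 6.84% called lower. Of 13 integrin genes, 4 rose and 3 fell in the paired fit. Itga5, the fibronectin receptor subunit, went from 140 to 1600 CPM in line 1 and from 406 to 4390 CPM in line 2 (mean change 3.47 ± 0.44, adjusted p = 0.000361), and Itga2 and Itgb1 rose with Itgb3 and Itga5. Itga6 and Itgb4, which form the laminin receptor of basal cells, both fell, Itgb4 from 1050 to 285 CPM and from 96.9 to 1.4 CPM. Fn1 (fibronectin) went from 11400 to 30100 CPM and from 8400 to 31600 CPM, but its mean change of 1.65 ± 0.62 did not pass (adjusted p = 0.0782). Of 14 collagen chains, 3 rose (Col5a2, Col5a3 and Col7a1) and 2 fell (Col6a1 and Col6a2). Col6a1 went from 301 CPM to 0 in line 1 and from 530 to 83.9 CPM in line 2. Of 16 matrix proteases and inhibitors, 7 rose and 1 fell, with medians of 0.69 in line 1 and 1.3 in line 2. Lox, the collagen cross-linking oxidase, went from 457 to 24.4 CPM in line 1 and stood at 0.416 and 0.684 CPM in line 2.

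**Figure D3:**
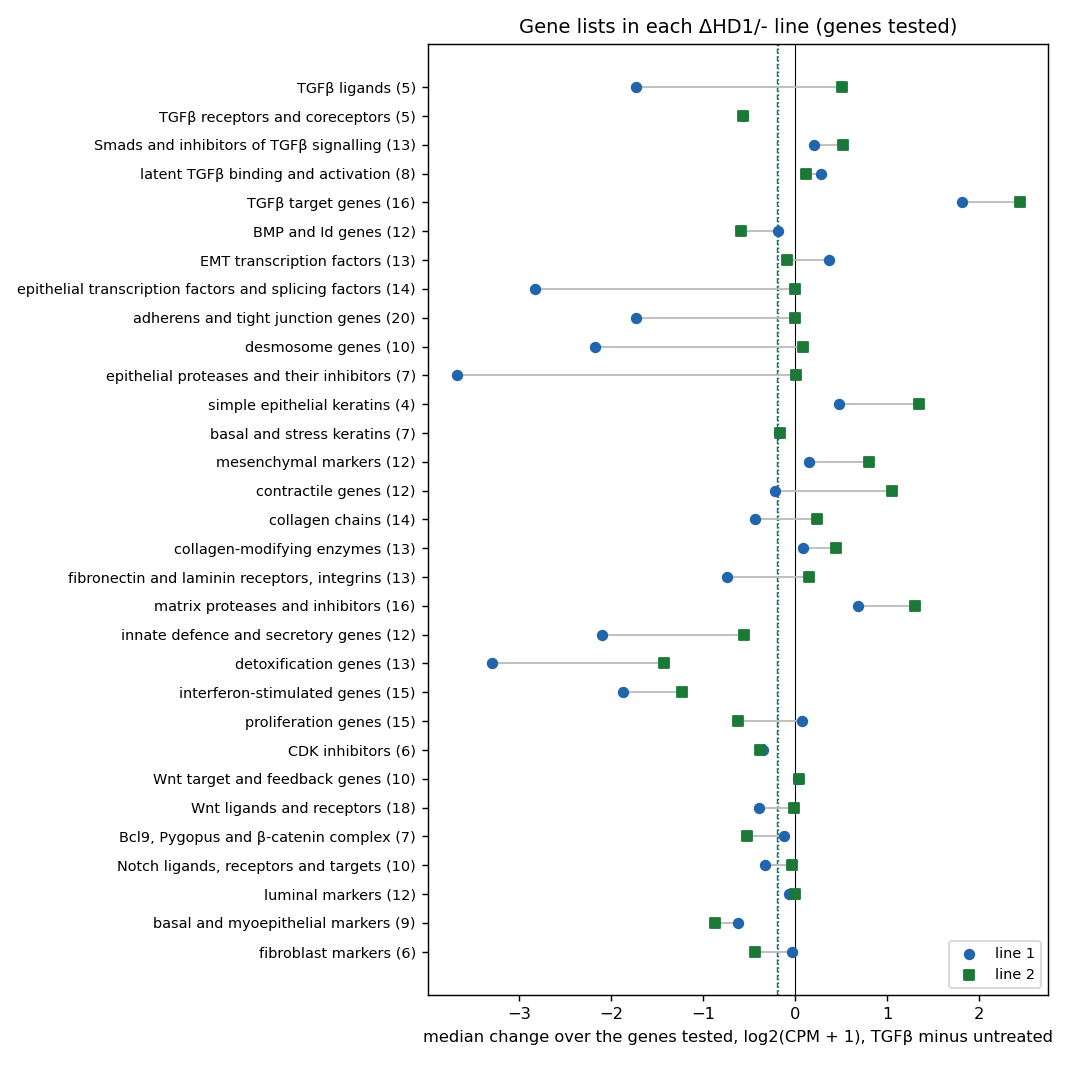
Median change of each gene list in ΔHD1/- line 1 (blue circles) and line 2 (green squares), in log2(CPM + 1), with the number of genes tested in brackets. The dashed and dotted lines, which nearly coincide, are the medians of all genes tested (-0.2 and -0.19). The epithelial transcription factors, junction, desmosome and protease lists lie to the left in line 1 (-3.68 for the proteases and inhibitors) and at about 0 in line 2, the simple epithelial keratins lie to the right of 0 in both, the TGFβ target genes lie to the right in both, and the contractile genes to the right in line 2 alone.

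Of 13 EMT transcription factors tested, 2 were called higher and 0 lower by limma (2.49% and 6.84% of all genes), namely Tead2, a partner of Yap (85.3 to 259 CPM in line 1 and 30.7 to 93.2 CPM in line 2, mean change 1.58 ± 0.19, adjusted p = 0.000267), and the forkhead factor Foxf2. Snai1 stood at 18.1 and 56.6 CPM in line 1, next to 61.6 and 58 CPM in line 2 (adjusted p = 0.166). It was called with line 1 alone (adjusted p = 0.0224), yet the test between the lines did not pass (adjusted p = 0.0695). Zeb1 stood at 52.9 and 68.6 CPM in line 1, next to 134 and 98.4 CPM in line 2 (adjusted p = 0.99). Zeb2 stood at 10.2 and 30.9 CPM and at 24.5 and 43.8 CPM, and Snai2 at 4.66 and 4.09 CPM and at 10.7 and 27.2 CPM. Twist1 stood at 20 and 12.9 CPM and at 35.2 and 21.5 CPM. Untreated line 2 held more of all 5 factors than untreated line 1. Of 12 mesenchymal markers, 2 rose (Itga5 and Tnc) and 1, S100a4, fell. Vim (vimentin) stood at 156 and 369 CPM in line 1 against 3680 and 3740 CPM in line 2 (adjusted p = 0.551), and Cdh2 (N-cadherin) at 126 and 123 CPM against 154 and 300 CPM (adjusted p = 0.582).

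Genes outside EMT also fell in both lines, where 6.84% of all genes were called lower. Of 15 interferon-stimulated genes, 8 were called lower and 0 higher (limma), with medians of -1.87 in line 1 and -1.23 in line 2. Irf7, a regulator of type I interferon genes, went from 10.9 to 0.278 CPM in line 1 and from 5.34 to 0.756 CPM in line 2 (mean change -2.54 ± 0.41, adjusted p = 0.00147). Of 13 detoxification genes, 7 were called lower and 0 higher, with medians of -3.3 and -1.42. In line 1, however, 2 of them were at least 1 higher, where 4.16% of all genes were. The summed level of the list was 1360 CPM untreated and 1400 CPM with TGFβ in line 1, and 2070 and 457 CPM in line 2. Gsta4, a glutathione transferase, went from 108 to 2.03 CPM and from 165 to 1.55 CPM (-5.6 ± 0.67, adjusted p = 0.000267). Of 12 innate defence and secretory genes, 4 fell and 1, Ptgs2 (cyclooxygenase 2), rose from 114 to 643 CPM and from 76.9 to 2790 CPM. Notch1 fell from 397 to 36.2 CPM and from 106 to 5.18 CPM.

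Of 15 proliferation genes, 0 were called in either direction by the paired limma fit, where 2.49% and 6.84% of all genes were called higher and lower, and their medians were 0.08 in line 1 and -0.62 in line 2, where Mki67 went from 330 to 71.4 CPM. In line 1 Mki67, the proliferation antigen, stood at 186 and 173 CPM. Cdkn2a and Cdkn2b, the cell cycle inhibitors of the Ink4 locus, were at 0 in all 4 libraries. Of 10 Wnt target and feedback genes, 1 was called, Notum, which fell, a share near that of all genes called lower (6.84%). Axin2, the standard readout of β-catenin activity, stood at 1.33 and 0.516 CPM in line 1, next to 0.683 and 1.87 CPM in line 2 (adjusted p = 0.929), and at 32.9 and 13.5 CPM in the Wnt3a libraries.

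The same genes were read in the ΔHD1/fl lines, whose own changes do not enter the classes, although their libraries add to the spread used for every call. Of the 222 shared genes that rose, 158 were at least 1 higher in ΔHD1/fl line 1 and 176 in line 2, against 7.54% and 3.76% of all genes. Of the 579 that fell, 277 and 352 were at least 1 lower, against 12.5% and 6.16%, and 17 and 2 were at least 1 higher. Of the 104 genes that fell in ΔHD1/- line 1 alone, 38 were at least 1 lower in ΔHD1/fl line 1 and 17 in line 2. Cdh1 went from 606 to 148 CPM in ΔHD1/fl line 1 and from 0.522 to 0.0355 CPM in line 2, so one line of each genotype lacked Cdh1 from the start. The labels do not say whether lines of the same number share a tumor. Of the 65 genes that rose in ΔHD1/- line 2 alone, 14 and 16 were at least 1 higher in the ΔHD1/fl lines. Acta2 went from 0 to 6.1 CPM and from 0.261 to 27.7 CPM there, and Tagln from 0.183 to 4.12 CPM and from 0.0746 to 8.2 CPM. Both contractile genes thus ended higher in each ΔHD1/fl line than in ΔHD1/- line 1 and lower than in ΔHD1/- line 2.

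**Figure D4:**
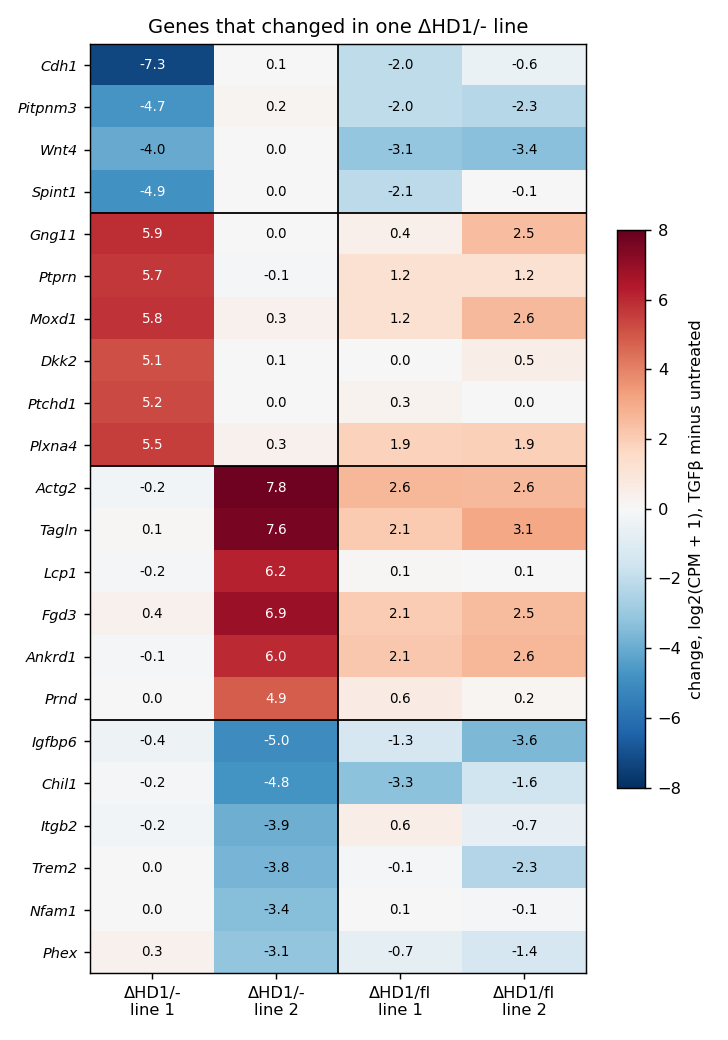
Change with TGFβ, in log2(CPM + 1), of the named genes that changed in one ΔHD1/- line, shown for ΔHD1/- lines 1 and 2 and ΔHD1/fl lines 1 and 2 (1 pair of libraries each, red higher and blue lower). Actg2 and Tagln, at -0.2 and 0.1 in ΔHD1/- line 1, lie between 2.1 and 3.1 in the ΔHD1/fl lines, whereas Lcp1 and Nfam1 lie between -0.1 and 0.1 there.

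A test of the difference in response between ΔHD1/- and ΔHD1/fl lines called 3 genes lower (0.0226%) and 0 higher (limma). It treated lines of the same number as unrelated, although whether they share a tumor is not given in the labels. At an unadjusted p under 0.05 there were 1091 of the 13270 genes, and edgeR called 5. With no difference at all, a share of about 0.05 would be expected under that limit. Atg9b, an autophagy lipid scramblase whose gene model overlaps Nos3, went from 217 to 107 CPM and from 185 to 129 CPM in ΔHD1/- lines, and from 177 to 345 CPM and from 5.82 to 19.8 CPM in ΔHD1/fl lines (difference in response -2.06, adjusted p = 0.0452). That call was lost in 7 alternatives, among them line as a random effect (adjusted p = 0.618) and leaving out line 1 (adjusted p = 0.074). Adm, the vasodilator adrenomedullin, went from 4.32 to 0.0397 CPM and from 3.03 to 0.252 CPM and was at 0 in all 4 ΔHD1/fl libraries, so only the ΔHD1/- lines could show a fall (adjusted p = 0.0283). Mc5r, a melanocortin receptor, was at or near 0 in the ΔHD1/- lines and went from 0.366 to 3.95 CPM and from 0 to 2.2 CPM in the ΔHD1/fl lines (adjusted p = 0.0452). The calls on Adm and Mc5r were lost with edgeR (adjusted p = 1 and 0.712) and with a pseudocount of 0.1. With line 1 left out the comparison called 57 genes, and with line 2 left out 78, so the count was far lower with both lines than with either alone. Against the mean of the other 3 genotypes (ΔHD1/fl, ΔHD2/fl and ΔHD2/-), 5 genes responded higher (0.0377%) and 21 lower (0.158%). The 5 were Lifr, Gli1, Rec114, Ptn and the miRNA gene Mir7225, named after their values were seen, and Ptn was at 0 in all 4 ΔHD1/- libraries.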

How the data were processed

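Libraries were stranded mRNA libraries of 27 samples, of which 4 are described here and the rest supply the spread. Per the submitters' processing notes the authors used STAR and mm10. The study's methods name the instrument of the labels and another, and describe unique hits counted in RefSeq exons with QuasR beside the other, so the counting of these libraries is not certain. The deposited values are CPM without further scaling. All values were whole multiples of 1 read within 0.1 read (100%), so reads could be recovered. Symbols, coordinates and promoters are from RefSeq (GRCm38.p6). Whether counting used strand is not given in the sources used here, and many named genes, among them Bcl9l, Chdh, Gas7, Tagln, Prnd and Atg9b, overlap other gene models.

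A gene was kept when 2 or more libraries reached 1 CPM. Kept genes were fitted on log2(CPM + 1) with limma 3.58.1 (R 4.3.3; trend and robust) over all 27 libraries, with cell line as a block and Wnt3a and TGFβ effects per genotype. Calls need an adjusted p of at most 0.05 (Benjamini-Hochberg) and a change of at least 1. A second fit gave each ΔHD1/- line its own TGFβ effect. Since each line has 1 library per treatment, its spread is assumed to be that of the other lines, and Wnt3a effects are shared, so fitted line effects differ slightly from observed changes. Classes use observed changes. Same-numbered libraries are the same cell line, and the gap between lines untreated and with TGFβ correlated across genes (r = 0.634). In the first fit, p-values measure how far responses to treatment vary between cell lines of a genotype, each line's own level being removed. In the second fit, the TGFβ responses of the ΔHD1/- lines add nothing to that spread.

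The genes named are Bcl9 and Bcl9l, the 8 largest shared changes each way, 6 each way for each line alone, 4 each way for opposite changes, 3 each way against ΔHD1/fl, 27 preset genes and members of 34 gene lists, some of which are not reported here. Members and lists were chosen with earlier results of these data known. Tests were tried on simulated data. Alternatives were a pseudocount of 0.1, no filter or 5 CPM, median-of-ratios scaling, no block, line as a random effect, ΔHD1 libraries alone, edgeR 4.0.16 on recovered reads (1249 genes called in both lines), the Wnt3a library as control, no limit on fold change, an inner limit of 0.25, and leaving out each line. A Wnt3a effect per line was added after seeing the data.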

Additional observations from a re-analysis of the deposited data

Results flagged for a closer look

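The named genes whose response differed between ΔHD1/- lines 1 and 2 were flagged because limma's test of the difference passed, with 1 pair of libraries per line and the spread taken from other lines. Where both libraries of one line were under 1 CPM (line 2 for Cdh1 and Spint1, line 1 for Igfbp6, Chil1, Trem2 and Nfam1), no fall could be seen in that line and the difference restates the level of the other. Values are the response of line 1 minus that of line 2 in log2(CPM + 1). Among genes that fell in line 1 alone the differences were -7.3 for Cdh1, -5.26 for Pitpnm3, -4.73 for Wnt4 and -4.55 for Spint1. For genes that rose there they were 6 for Gng11, 5.72 for Ptprn, 5.57 for Moxd1, 5.2 for Dkk2, 5.19 for Ptchd1 and 5.05 for Plxna4. Genes that rose in line 2 alone gave -8.25 for Actg2, -7.52 for Tagln, -6.44 for Lcp1, -6.24 for Fgd3, -5.22 for Ankrd1 and -4.88 for Prnd. Genes that fell there gave 4.15 for Igfbp6, 3.87 for Chil1, 3.84 for Itgb2, 3.66 for Trem2, 3.45 for Nfam1 and 3.17 for Phex.

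Opposite responses gave 6.12 for Tenm4, 6.05 for Igfbp3, 5.18 for Cavin4 and 4.94 for Rgs17, and -9.78 for Fhl1, -6.82 for F3, -6.53 for Pappa and -6.08 for Lmcd1. The response of ΔHD1/- lines minus that of ΔHD1/fl lines was -2.06 for Atg9b, -2.02 for Adm and -1.79 for Mc5r, each flagged by the test between genotypes.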

How the results depend on the processing

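The 1238 genes called in both lines became 190 without the replicate block, 496 when only ΔHD1 libraries were fitted and 2614 with no limit on fold change, and 923 to 1327 when a line was left out. Line 1 alone gave 135 without the block and 673 with ΔHD1 libraries only, and line 2 alone 173 and 232. The 447 genes that differed between the lines became 25 without the block, 50 with ΔHD1 libraries only, 259 with edgeR, 155 with Wnt3a as control and 196 with a Wnt3a effect per line, which was chosen after seeing the data. The 135 genes of line 1 alone became 46 with Wnt3a as control. The 97 of line 2 alone became 57 with the other pseudocount, 61 with the 5 CPM filter, 41 with Wnt3a as control and 62 with the inner limit of 0.25.

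Against ΔHD1/fl, the 3 calls became 0 with the other pseudocount, 0 with the 5 CPM filter, 0 with ΔHD1 libraries only, 1 with median-of-ratios scaling, 1 without the block, 6 without a filter, 5 with edgeR, and 57 to 78 with a line left out. Against the other genotypes, 26 became 11 with the 5 CPM filter, 9 with scaling, 1 without the block, 40 with edgeR, and 113 to 195 with a line left out. Causes were not tested.

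Of 58 calls on named genes, 42 were lost without the block, 28 with ΔHD1 libraries only, 17 with edgeR, 7 with the other pseudocount and 4 with scaling. With a Wnt3a effect per line, 5 were lost (Moxd1, Wnt4, Ankrd1, Trem2 and F3). Axin2 alone reversed, to -3.408 with Wnt3a as control, since that baseline holds more Axin2. Depth limits genes near 3 reads, and 1 library per line and treatment leaves no spread within a line.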
